A study of Arabidopsis thaliana with 12 samples.

Results

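Salt treatment and genotype were compared for 8 Arabidopsis genes of sodium handling: SOS1 (AT2G01980), SOS2 (AT5G35410), SOS3 (AT5G24270), CBL10 (AT4G33000), HKT1 (AT4G10310), NHX1 (AT5G27150), NHX2 (AT3G05030) and AVP1, also called VHP1 (AT1G15690). They were chosen by locus for their known roles in sodium exclusion and vacuolar sequestration, and all 8 were among the 26794 genes or unnamed probes tested. The study set wild type (Col-0) beside SvGRP, a transformant that expresses a glycine-rich RNA-binding protein taken from Sporobolus virginicus, a salt-tolerant grass. Seeds of both genotypes germinated on MS medium for 5 days, and the seedlings were then kept for 24 h on plates with 0 or 150 mM NaCl. The 4 groups were therefore wild type at 0 mM, wild type at 150 mM, SvGRP at 0 mM and SvGRP at 150 mM, with 3 arrays each of whole plants labelled 6 days old. The promoter of the transgene and the number of transformed lines are not given in the sources used here. These groups ask how salt changed each gene in either genotype, how the genotypes differed at each NaCl level, and whether their salt responses differed.

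Sodium that enters a root cell can be pumped back out or stored in the vacuole. In the SOS pathway, salt raises cytosolic calcium, the calcium sensors SOS3 (mainly in roots) and CBL10 (mainly in shoots) bind the protein kinase SOS2, and the activated kinase phosphorylates SOS1, a Na+/H+ exchanger of the plasma membrane that extrudes sodium. HKT1 is a sodium transporter of the cells around the xylem, where it takes sodium back out of the transpiration stream and so limits what reaches the leaves. NHX1 and NHX2 are cation/H+ antiporters of the vacuolar membrane, and AVP1, a proton-pumping pyrophosphatase, together with the vacuolar H+-ATPase builds the proton gradient that they use.

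Levels are given as the log2 signal of a probe minus the log2 of its array's 75th percentile, so that 0 means a signal equal to that percentile. Signals of different probes cannot be compared, and only differences of 1 probe between arrays are read. That percentile ran from 3641 to 5676 over the arrays, and arrays of a group correlated with r from 0.990 to 0.997 across genes. With 3 arrays a group, precision is limited by their number. Whether the replicates came from separate growths is not in the labels, so the spread behind each p-value may be technical only. The 12 arrays lay on 3 slides. Slide 1 held wild type at 0 mM and replicate 1 of wild type at 150 mM. Slide 3 held replicate 3 of SvGRP at 0 mM and all of SvGRP at 150 mM, and the rest were on slide 2. Wild type and SvGRP never shared a slide at equal NaCl, so each genotype difference rests on a chain of slides. Once slide is fitted, the salt estimates equal the differences within a slide: 1 array at 150 mM against 3 at 0 mM in wild type, and 3 against 1 in SvGRP. All 15 probes of the 8 genes exceeded the 20th percentile of signal on each of the 12 arrays.

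Relative to the 75th percentile, salt lowered HKT1, CBL10 and SOS2 and raised NHX2 and AVP1 in both genotypes. The results for SOS2 and AVP1 in wild type were less firm. There the SOS2 fall was absent when levels were set against spike-in probes, and the AVP1 call was lost once slide was fitted. HKT1 fell 8.62-fold in wild type and 9.03-fold in SvGRP, CBL10 fell 2.40-fold and 2.87-fold, and NHX2 rose 1.86-fold and 2.05-fold. SOS1, the exporter itself, moved little: it was 1.02-fold its control level in wild type and rose 1.13-fold in SvGRP. By limma with Benjamini-Hochberg adjustment over all genes, 6 of the 8 were called in wild type at an adjusted p under 0.05, 3 higher and 3 lower, where 63.2% of all genes tested were called. That balance depends on the scaling: set against 8 E1A spike-in probes it was 5 higher and 2 lower, and with quantile normalization 4 higher and 3 lower. In SvGRP 7 of the 8 were called, 4 higher and 3 lower, where 68.8% of all genes were called, and both of those scalings gave the same counts. After slide was added to the fit, 4 were called in wild type against 45.7% of all genes, and 5 in SvGRP against 54.1%. Salted and control arrays did not overlap for 7 of the 8 genes in either genotype, against 69.5% of all genes in wild type and 74.7% in SvGRP. The share of the 8 genes that responded to salt was therefore near that of the whole array. The absolute change of HKT1 in wild type exceeded that of 98.4% of genes tested, that of CBL10 exceeded 89.5% and that of NHX2 81.2%, while SOS2 exceeded 55.4%, SOS3 51.0%, AVP1 34.7%, NHX1 32.2% and SOS1 4.57%.

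**Figure D1:**
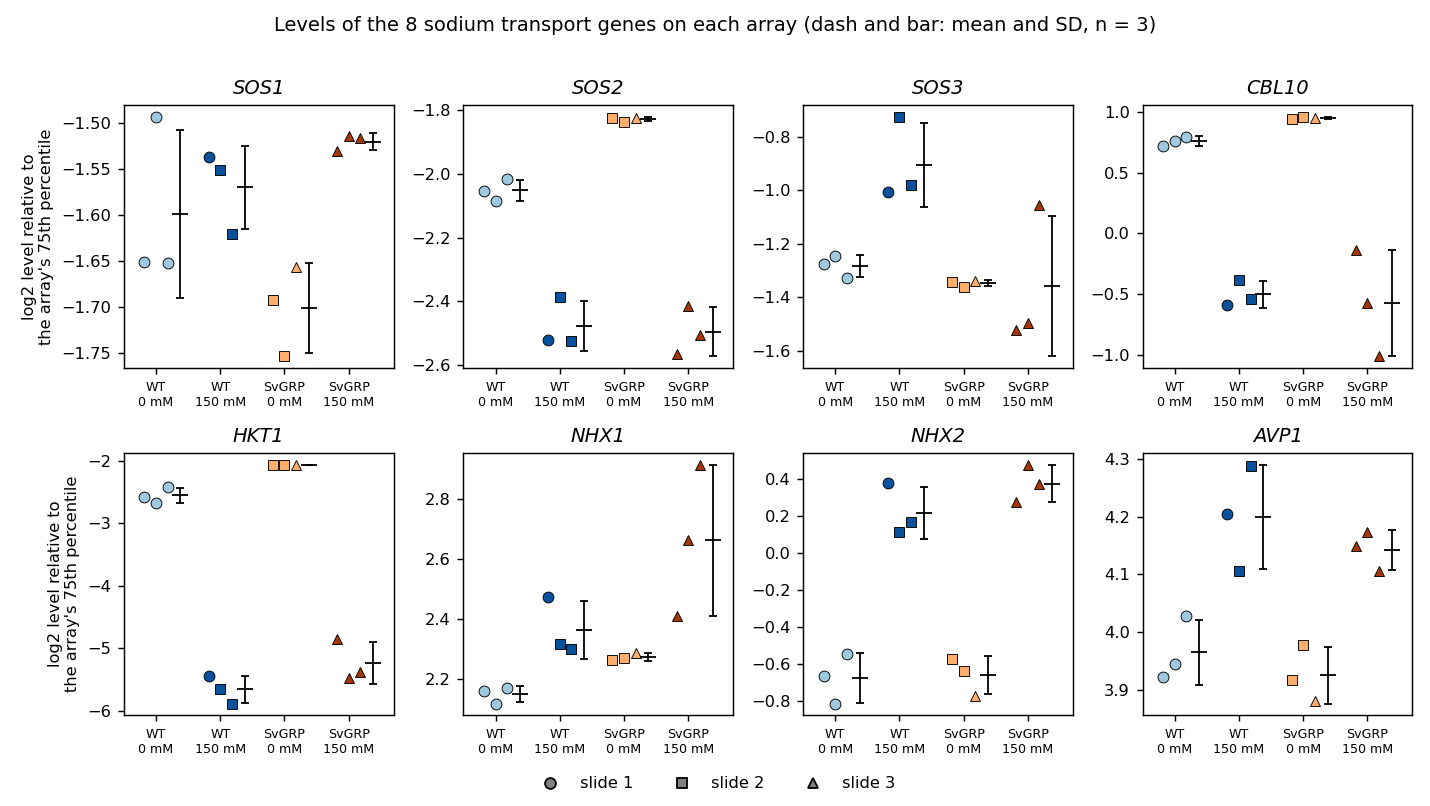
Log2 level of each gene relative to the array's 75th percentile (y axis, own scale per gene) on each of the 12 arrays, grouped by genotype and NaCl (x axis), with marker shape giving the slide and the dash with bar giving the mean and SD of 3 arrays. HKT1 lies between -2.67 and -2.06 at 0 mM and between -5.89 and -4.86 at 150 mM, whereas SOS1 stays between -1.75 and -1.49 throughout.

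Of the calcium sensors, CBL10 fell in both genotypes, while SOS3 was called higher in wild type, though not in every fit, and moved little in SvGRP. CBL10, which anchors SOS2 at the plasma membrane and the vacuolar membrane, stood at 0.72, 0.76 and 0.80 in wild type at 0 mM and at -0.59, -0.38 and -0.54 at 150 mM. In SvGRP it stood at 0.94, 0.95 and 0.95 without salt and at -0.14, -0.57 and -1.01 with salt. Every salted array lay below every control array, and the 3 salted SvGRP arrays were spread more widely (SD 0.44) than any other group of this gene. The log2 change was -1.26 ± 0.17 (SE, limma, adjusted p = 0.00014) in wild type and -1.52 ± 0.17 (adjusted p = 2.9e-05) in SvGRP. Within slides it was -1.35 and -1.53, and both passed with slide fitted (adjusted p = 0.005 and 0.002). On the spike-in scale the wild-type change was -0.84 (adjusted p = 0.0013).

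SOS3, the sensor first found through the salt-overly-sensitive mutants, was at -1.28, -1.24 and -1.33 in wild type at 0 mM and at -1.01, -0.73 and -0.98 at 150 mM. In SvGRP it was at -1.34, -1.36 and -1.34 without salt and at -1.52, -1.50 and -1.06 with salt. The wild-type groups do not overlap, while in SvGRP replicate 3 of the salted group lies above and the other arrays lie below the controls. SOS3 rose by 0.38 ± 0.12 (SE, limma, adjusted p = 0.019) in wild type, and its change in SvGRP was -0.01 (95% interval -0.28 to 0.26, adjusted p = 0.94). The wild-type rise was 0.28 with slide fitted (limma, adjusted p = 0.24), 0.36 when replicate 3 of wild type at 0 mM was left out (adjusted p = 0.055) and 0.29 when replicate 2 of wild type at 150 mM was (adjusted p = 0.073), so it passed in none of these. On the spike-in scale it was 0.81 (adjusted p = 0.00072).

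SOS2, the kinase that both sensors recruit, fell in both genotypes when levels were set against the 75th percentile. It lay at -2.05, -2.08 and -2.02 in wild type without salt and at -2.52, -2.39 and -2.52 with salt. The SvGRP arrays lay at -1.82, -1.84 and -1.83 without salt and at -2.57, -2.41 and -2.50 with salt. The ranges do not overlap in either genotype, and the highest levels belonged to SvGRP without salt. The change was -0.43 ± 0.05 (SE, limma, adjusted p = 1e-04) in wild type and -0.67 ± 0.05 (adjusted p = 4.2e-06) in SvGRP, and with slide fitted it was -0.47 (adjusted p = 0.0037) and -0.67 (adjusted p = 0.00052). The fall in wild type depends on the scaling. Set against the spike-in probes it was 0.0010 (adjusted p = 0.99). The signals as deposited, not scaled between arrays, were 1019, 859 and 927 without salt and 861, 975 and 903 with salt. Spike-in scaling shifted the wild-type salt change of every gene alike, as for HKT1 (-3.11 to -2.68) and NHX2 (0.89 to 1.32). None of the other scalings reversed the SOS2 fall. In SvGRP the fall passed on the spike-in scale too, at -0.44 (adjusted p = 0.0093).

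SOS1, the exchanger at the end of the pathway, had the narrowest span of the 8 genes. In wild type it lay at -1.65, -1.49 and -1.65 without salt and at -1.54, -1.55 and -1.62 with salt, and these ranges overlap. In SvGRP it lay at -1.69, -1.75 and -1.66 without salt and at -1.53, -1.51 and -1.52 with salt, which do not overlap. The change in wild type was 0.03 (95% interval -0.09 to 0.15, limma, adjusted p = 0.65) and that in SvGRP was 0.18 ± 0.05 (SE, adjusted p = 0.013). The SvGRP rise was 0.14 with slide fitted (adjusted p = 0.2) and 0.15 when replicate 2 of SvGRP at 0 mM was left out (adjusted p = 0.057). On the spike-in scale SOS1 rose in both genotypes, by 0.46 in wild type (adjusted p = 0.0017) and 0.41 in SvGRP (adjusted p = 0.0039). That scale raised the median of all genes from 0.04 to 0.46 in wild type and from -0.07 to 0.16 in SvGRP.

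HKT1, the xylem sodium retriever, had the largest change of the 8 genes. In wild type it lay at -2.57, -2.67 and -2.42 without salt and at -5.44, -5.65 and -5.89 with salt, or 17.1% ± 1.52 and 1.99% ± 0.304 of the 75th percentile (SD, n = 3). In SvGRP it lay at -2.07, -2.06 and -2.07 without salt and at -4.86, -5.48 and -5.38 with salt, or 23.9% ± 0.0973 and 2.70% ± 0.651. Salted and control arrays were far apart in both genotypes, and the salted signals of 87.8 to 186 were still above the highest 20th percentile of any array, 27.6. The log2 change was -3.11 ± 0.16 (SE, limma, adjusted p = 8.2e-07) in wild type and -3.18 ± 0.16 (adjusted p = 3.6e-07) in SvGRP, and, with slide fitted, -2.89 (adjusted p = 0.00019) and -3.17 (adjusted p = 6.7e-05).

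Markers of the root stele, the tissue in which HKT1 acts, were lower under salt as well. SKOR, a potassium channel that loads the xylem, changed by -3.65 in wild type and -3.29 in SvGRP. NRT1.5, a nitrate transporter with the same location, changed by -3.23 and -3.78, and the phosphate exporter PHO1 by -1.68 and -1.95. SHR, a transcription factor of the stele, changed by -0.62 in both genotypes. WOL, a cytokinin receptor, was the exception at 0.26 in wild type and -0.09 in SvGRP. By limma, 4 of these 5 markers fell in either genotype (3 in wild type when set against the spike-in probes). Of all genes tested, 30.2% fell in wild type and 37.8% in SvGRP. WOL rose in wild type (limma, adjusted p = 0.024) but not after slide was fitted (adjusted p = 0.53). NRT1.5 made up 67.3% to 75.1% of the summed signal of these probes at 0 mM in wild type and 70.7% to 74.1% in SvGRP, so the sum mostly follows that gene. The mean log2 level of the 5, in which each counts alike, went from between 0.84 and 0.95 to between -0.95 and -0.81 in wild type and from between 0.88 and 1.09 to between -1.22 and -0.85 in SvGRP. Their summed level was 1550% to 2140% of the 75th percentile in wild type at 0 mM and 367% to 411% at 150 mM, and 1910% to 2350% and 290% to 367% in SvGRP. None of the 5 was at or below the 20th percentile. Shoot markers moved down too: 5 of 5 fell in wild type and 4 of 5 in SvGRP, beside the same shares of all genes. On the spike-in scale and with quantile normalization 3 fell in either genotype, and with quantile normalization 1 rose in SvGRP. Their summed level went from between 31500% and 36400% to between 21400% and 22700% in wild type and from between 28300% and 30200% to between 21900% and 24000% in SvGRP. Fewer cells of a type and less RNA per cell cannot be told apart in whole seedlings, and the part of tissue share in the HKT1 result was not tested.

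At the vacuolar membrane NHX2 rose most. It lay at -0.66, -0.81 and -0.54 in wild type without salt and at 0.38, 0.11 and 0.17 with salt. The SvGRP arrays lay at -0.57, -0.63 and -0.77 without salt and at 0.28, 0.48 and 0.38 with salt. All 6 salted arrays were above all 6 control arrays. NHX2 rose by 0.89 ± 0.10 (SE, limma, adjusted p = 3.5e-05) in wild type and by 1.03 ± 0.10 (adjusted p = 8.9e-06) in SvGRP, and by 1.05 (adjusted p = 0.00056) and 1.15 (adjusted p = 2e-04) with slide fitted.

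NHX1, its close relative, gave smaller differences. In wild type it lay at 2.16, 2.12 and 2.17 without salt and at 2.47, 2.32 and 2.30 with salt. In SvGRP it lay at 2.26, 2.27 and 2.29 without salt and at 2.41, 2.66 and 2.91 with salt. The ranges do not overlap in either genotype, and the salted SvGRP arrays were the most spread (SD 0.25). The wild-type change was 0.21 (95% interval -0.02 to 0.45, limma, adjusted p = 0.1) and the SvGRP rise was 0.39 ± 0.11 (SE, adjusted p = 0.0081), or 0.37 with slide fitted (adjusted p = 0.077). The wild-type change depends on the scaling too, since NHX1 was called higher there with quantile normalization (0.31, adjusted p = 0.026) and on the spike-in scale (0.64, adjusted p = 0.0025), where the SvGRP rise was 0.62 (adjusted p = 0.0038).

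AVP1, the proton pump, rose slightly in both genotypes. It lay at 3.92, 3.94 and 4.03 in wild type without salt and at 4.20, 4.11 and 4.29 with salt, and at 3.92, 3.98 and 3.88 in SvGRP without salt and 4.15, 4.17 and 4.11 with salt. Every salted array was above every control array. The rise was 0.23 ± 0.06 (SE, limma, adjusted p = 0.0049) in wild type and 0.22 ± 0.06 (adjusted p = 0.0065) in SvGRP. Fitting slide gave 0.24 (adjusted p = 0.058) and 0.26 (adjusted p = 0.037), so the wild-type call was lost. On the spike-in scale it was 0.66 (adjusted p = 0.00021) and 0.45 (adjusted p = 0.0031).

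**Figure D2:**
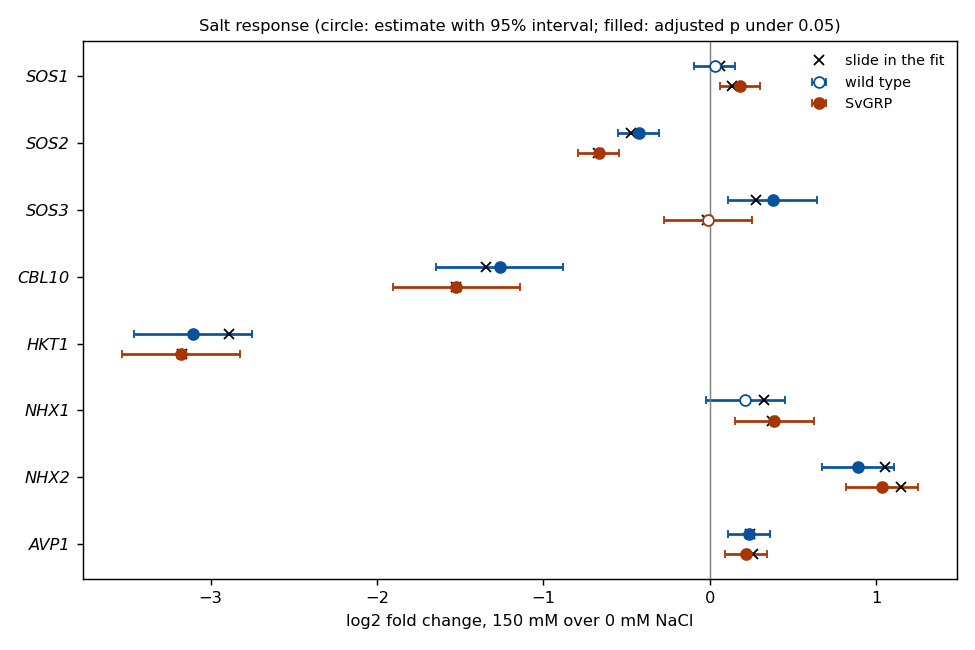
Log2 fold change of each gene at 150 mM over 0 mM NaCl (x axis) in wild type and SvGRP, with circles for estimates, bars for 95% intervals, filled circles for an adjusted p under 0.05 and crosses for the estimate with slide in the fit. HKT1 lies at -3.11 and -3.18, CBL10 at -1.26 and -1.52 and NHX2 at 0.89 and 1.03, and the intervals of the genotypes overlap for all 8 genes.

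Of the 8, 4 genes had more than 1 probe, which allowed a second reading of the same transcripts. The other HKT1 probe changed by -3.14 in wild type and -3.26 in SvGRP, close to the probe that stands for the gene. The other CBL10 probes changed by -1.19 and -1.07 in wild type and by -1.44 and -1.37 in SvGRP. The other NHX1 probe rose in both genotypes, by 0.41 (limma over all probes, adjusted p = 0.012) and 0.44 (adjusted p = 0.0072), so the wild-type result for NHX1 depends on the probe. It was 0.32 (adjusted p = 0.18) and 0.41 (adjusted p = 0.087) with slide fitted. Of the other AVP1 probes, 1 rose by 0.39 in wild type and 0.53 in SvGRP and another by 0.38 and 0.21. The third, whose control arrays in wild type ranged from -2.51 to -1.56, changed by 0.52 (adjusted p = 0.051) and 0.24 (adjusted p = 0.32). SOS1, SOS2, SOS3 and NHX2 had a single probe each.

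**Figure D3:**
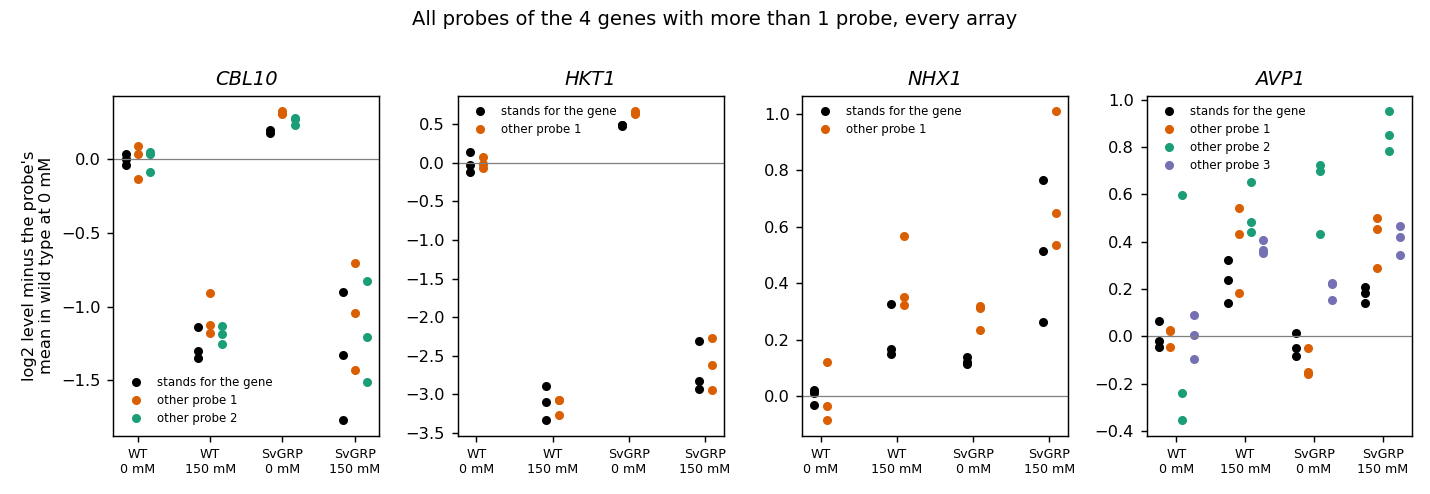
Levels of every probe of CBL10, HKT1, NHX1 and AVP1 on each array, as the log2 level minus that probe's mean in wild type at 0 mM (y axis), by group (x axis), with a colour per probe. Probes of CBL10 and of HKT1 fall together under salt, whereas 1 AVP1 probe is scattered among the wild-type control arrays.

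Relative to the 75th percentile, few of the 8 genes were called between the genotypes, while on the spike-in scale 7 were called at 0 mM, all higher in SvGRP, and 2 at 150 mM. At 0 mM, 1 of the 8 genes was called, SOS2, which was higher in SvGRP, where 21.2% of all genes were called and 10.4% were higher. At 150 mM, 1 was called, SOS3, which was lower in SvGRP, where 28.9% of all genes were called, 18.7% lower and 10.2% higher. With slide as a term limma called 0 of the 8 at either NaCl level, where 0.911% and 0.892% of all genes were called. At an unadjusted p under 0.05 that fit left 1 gene at each level.

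SOS2 at 0 mM was higher in SvGRP by 0.22 ± 0.05 (SE, limma, adjusted p = 0.02), and all 3 SvGRP arrays lay above all 3 wild-type arrays. Without wild type at 0 mM replicate 1 or 2, or without any of the SvGRP replicates at 0 mM, the difference stayed between 0.21 and 0.23 with adjusted p between 0.051 and 0.063. Fitting slide gave 0.15 (adjusted p = 0.61), and the spike-in scale gave 0.58 (adjusted p = 0.0038). At 150 mM the genotypes differed by -0.02 (95% interval -0.14 to 0.11, adjusted p = 0.84).

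SOS3 at 150 mM was 1.37-fold lower in SvGRP, a log2 difference of -0.45 ± 0.12 (SE, limma, adjusted p = 0.019). The ranges were -1.52 to -1.06 in SvGRP and -1.01 to -0.73 in wild type. The difference was -0.36 when replicate 2 of wild type was left out (adjusted p = 0.072), -0.37 when replicate 1 of SvGRP was (adjusted p = 0.052) and -0.38 when its replicate 2 was (adjusted p = 0.068). It was -0.52 with slide fitted (adjusted p = 0.35) and -0.29 on the spike-in scale (adjusted p = 0.17).

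Mean HKT1 levels in SvGRP lay above those in wild type at both NaCl levels, and neither difference passed the threshold. The difference was 0.49 (95% interval 0.13 to 0.84, limma, adjusted p = 0.054) at 0 mM, where the groups do not overlap, and 0.42 (95% interval 0.07 to 0.78, adjusted p = 0.073) at 150 mM, where they do. The other HKT1 probe passed at both, with 0.65 (adjusted p = 0.011) and 0.53 (adjusted p = 0.02), and passed at neither with slide fitted (adjusted p = 0.31 and 0.4). At 150 mM the first probe also passed without wild type replicate 1, at 0.53 (adjusted p = 0.048), and without SvGRP replicate 2, at 0.54 (adjusted p = 0.049). Those were the highest wild-type and the lowest SvGRP array, so leaving out either could only widen the difference. On the spike-in scale the first probe passed at both levels, at 0.85 (adjusted p = 0.0018) and 0.58 (adjusted p = 0.02). With quantile normalization it passed at 150 mM alone, at 0.66 (adjusted p = 0.019).

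NHX1 at 150 mM was 0.30 above wild type in SvGRP (95% interval 0.06 to 0.54, limma, adjusted p = 0.06). The difference was 0.42 without replicate 1 of SvGRP at 150 mM (adjusted p = 0.005). That was the lowest salted SvGRP array, so leaving it out could only widen the difference. With all arrays NHX1 passed with quantile normalization (0.33, adjusted p = 0.037) and on the spike-in scale (0.46, adjusted p = 0.048). Relative to the 75th percentile, the remaining differences between the genotypes lay between -0.10 and 0.19 and did not pass. Of the genes without a call, SOS1 and SOS3 were lower and CBL10, HKT1 and NHX1 higher in all 3 SvGRP arrays than in all 3 wild-type arrays at 0 mM. Together with SOS2 that makes 6 of 8 genes with separate ranges, against 50.3% of all genes. At 150 mM 2 of 8 had separate ranges, SOS1 and SOS3, against 40.2% of all genes.

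**Figure D4:**
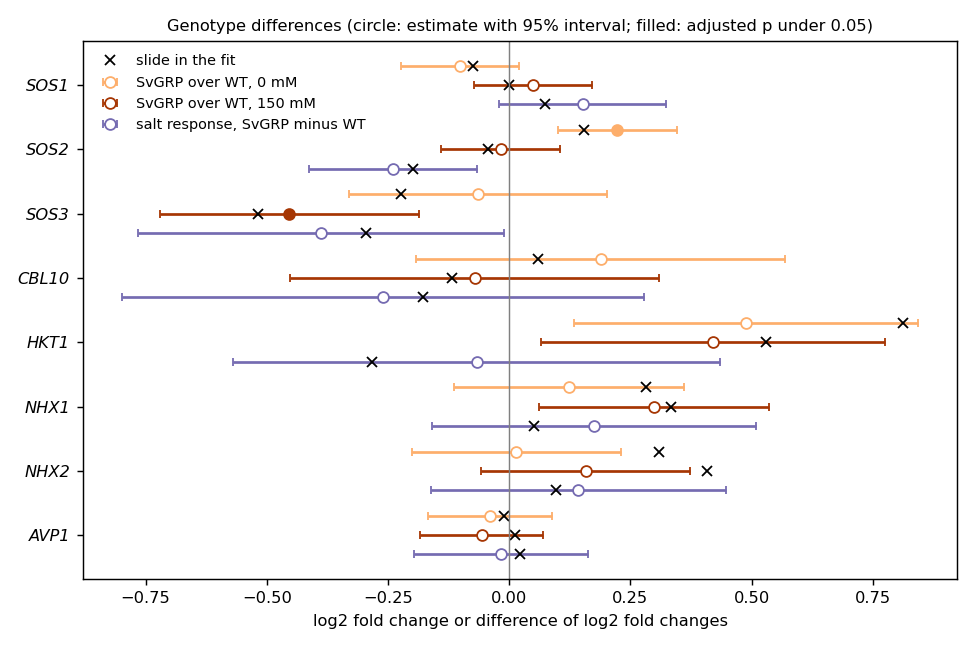
SvGRP over wild type at 0 mM and at 150 mM, and the difference of the salt responses (SvGRP minus wild type), for each gene on the log2 scale (x axis), with 95% intervals, filled circles for an adjusted p under 0.05 and crosses for the estimate with slide in the fit. Filled circles mark SOS2 at 0 mM (0.22) and SOS3 at 150 mM (-0.45), and no difference of the salt responses is filled.

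None of the 8 salt responses differed between the genotypes by limma's interaction test at an adjusted p under 0.05, where 8.96% of all genes were called, 2.52% higher and 6.45% lower, and 2 did at an unadjusted p under 0.05. These were SOS2, with a difference of -0.24 (95% interval -0.41 to -0.07, adjusted p = 0.082), and SOS3, with a difference of -0.39 (95% interval -0.77 to -0.01, adjusted p = 0.17). Without replicate 3 of SvGRP at 150 mM, the array that lay above the others, the SOS3 difference was -0.54 (adjusted p = 0.022). For the strong responders the intervals were wide: -0.57 to 0.43 around -0.07 for HKT1, -0.80 to 0.28 around -0.26 for CBL10 and -0.16 to 0.45 around 0.14 for NHX2. Each interval includes 0, and a true difference of any size within it remains compatible with the data from 3 arrays per group.

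The profiles over the 12 arrays were set beside those of 8136 other genes with a symbol. HKT1 was most like CYP78A6 (Pearson r = 0.996), LYC (0.995) and CAS1 (0.995), and 535 genes had r above 0.95 with it. CBL10 was most like PTAC16 (0.996), BEE2 (0.995) and CYP71B7 (0.993), with 541 genes above 0.95. For NHX2 the nearest were NAP (0.992), GAE5 (0.991) and CPUORF47 (0.990), with 406 above 0.95, and for SOS2 VPS46.2 (0.994), YSL6 (0.991) and APG5 (0.988), with 156. NHX1 had 24 genes above 0.95, led by UGE2, PUB45 and SBH1 (0.973, 0.973 and 0.972). AVP1 had 1, SYP43 (0.952), followed by SPDS1 (0.947) and BGLU42 (0.944). SOS3 was nearest to WAKL1 (0.926), GAPCP-1 (0.910) and EXPA20 (0.904) and SOS1 to TT5 (0.898), HDG8 (0.891) and INT3 (0.888), with no gene above 0.95. These values are descriptions over 12 arrays that share slides and the salt contrast, so any gene with a strong salt response scores high against another.

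The relatives of the sensors and the kinase were mixed. Of 8 other CBL calcium sensors, 3 rose and 2 fell in wild type and 2 rose and 4 fell in SvGRP, beside 33.1% of all genes that rose and 30.2% that fell in wild type and 31.0% and 37.8% in SvGRP. The median change was -0.07 in wild type (0.04 for all genes) and -0.13 in SvGRP (-0.07 for all genes), and on the spike-in scale 5 rose and 1 fell in wild type and 3 rose and 2 fell in SvGRP. CBL1, which works with CIPK23 at the plasma membrane, rose by 0.52 in wild type and 0.79 in SvGRP, whereas CIPK23 fell by 0.85 and 0.90. CBL8 fell by 1.77 in SvGRP, and its wild-type change of -0.39 was not called (limma, adjusted p = 0.34). In wild type CBL5 rose by 0.60, but not with slide fitted (0.28, adjusted p = 0.29), and CBL6 fell by 0.74. Of 23 other CIPK kinases, the family to which SOS2 belongs as CIPK24, 6 rose and 6 fell in wild type and 9 rose and 8 fell in SvGRP, with medians of 0.06 and 0.27, and on the spike-in scale 13 rose and 4 fell, and 12 rose and 6 fell. CIPK20 fell by 1.91 in wild type and 1.57 in SvGRP. CIPK19 rose by 1.45 in wild type and 1.115 in SvGRP, and CIPK5 by 0.99 and 1.44. CIPK10 and CIPK26 had no probe listed and were not analysed here.

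Of 9 genes whose products act on SOS2, SOS1 or calcium entry, 3 rose and 6 fell in wild type and 2 rose and 6 fell in SvGRP, beside the shares of all genes given above. With slide fitted 2 rose and 3 fell and 2 rose and 5 fell, and on the spike-in scale 3 rose and 3 fell and 2 rose and 3 fell. GRF6, a 14-3-3 protein of the group that holds SOS2 inactive, fell by 0.98 in both genotypes, or by 0.60 and 0.70 with quantile normalization. ABI2, a protein phosphatase that binds SOS2, rose by 0.86 in wild type and 1.76 in SvGRP. ANN1, an annexin of root calcium signalling, rose by 1.26 in wild type and 1.44 in SvGRP. Of the regulators of HKT1, ARR12, a cytokinin response regulator that represses HKT1 in roots, fell by 0.83 in wild type and 0.98 in SvGRP, and ARR1 fell by 0.32 and 0.47, although on the spike-in scale 1 of the 2 fell in each genotype. ABI4 was below the filter on dim probes and RBOHF had no probe listed.

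Subunits of the vacuolar H+-ATPase were called higher more often than lower, whereas the other NHX antiporters were not. Of 24 subunits of the vacuolar H+-ATPase, 14 rose and 2 fell in wild type and 11 rose and 3 fell in SvGRP, beside 33.1% and 30.2% of all genes in wild type and 31.0% and 37.8% in SvGRP. The median change was 0.23 in wild type (0.04 for all genes) and 0.12 in SvGRP (-0.07 for all genes). With slide fitted 11 rose and 1 fell in wild type and 8 rose and 1 fell in SvGRP, and on the spike-in scale 21 rose and 0 fell, and 14 rose and 1 fell. VHA-a1, the isoform of the trans-Golgi network, rose by 0.58 in wild type and 0.53 in SvGRP. VHA-E3 fell by 0.66 in wild type and 1.29 in SvGRP, although on the spike-in scale its wild-type change of -0.23 did not pass (limma, adjusted p = 0.069). VHA-G3 was called higher in wild type at 0.92 (adjusted p = 0.041) but was at 0.14 with slide fitted (adjusted p = 0.3). VHP2;1, a pyrophosphatase of the Golgi related to AVP1, rose by 0.35 in wild type and 0.22 in SvGRP. With slide fitted the wild-type rise passed (adjusted p = 0.011) and the SvGRP rise did not (adjusted p = 0.052). Of 5 other NHX antiporters, 1 rose and 2 fell in wild type (3 and 1 on the spike-in scale) and 2 rose and 2 fell in SvGRP. NHX4, another vacuolar member, fell by 1.06 and 0.76, opposite to NHX2, and NHX6, an antiporter of endosomes, rose by 0.51 and 0.50.

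**Figure D5:**
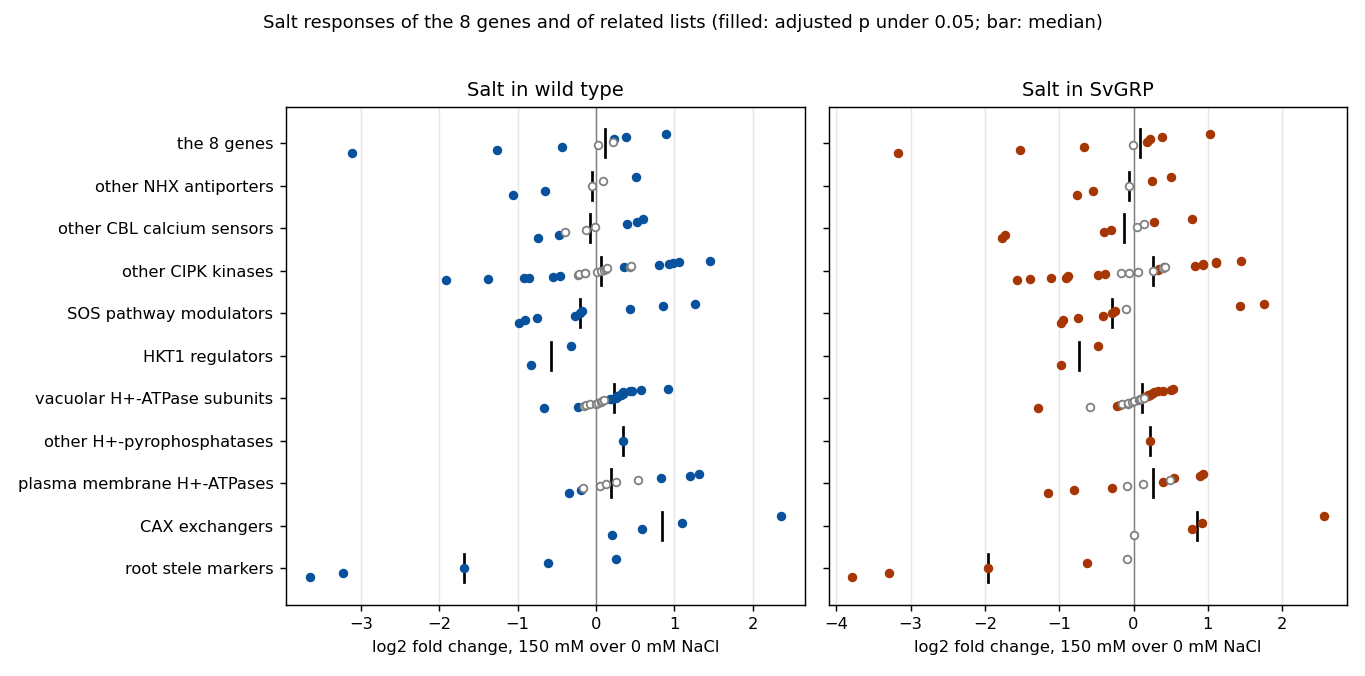
Log2 fold change at 150 mM over 0 mM NaCl (x axis) of the 8 genes and of each related list (rows) in wild type and in SvGRP, with a circle per gene, filled at an adjusted p under 0.05, and a bar at the list's median. The vacuolar H+-ATPase median is 0.23 in wild type and 0.12 in SvGRP, and the root stele markers reach -3.65 and -3.78.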

How the data were processed

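Per the labels' protocols, Cy3-labelled RNA of whole seedlings was hybridised to single-colour Agilent arrays, and the submitters' processing notes name Agilent Feature Extraction, with no version given in the sources used here. The deposited array files hold an intensity per probe, on a linear scale and without flags or background columns. The log2 values of the authors' deposited series table matched the scaled intensities after centring each probe on its median (largest difference 0.000213), and served as an alternative. Intensities were used, as log2 minus the 75th percentile of the array.

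Of 43603 probes other than controls, 35454 passed a filter on dim probes: a signal over the 20th percentile on every array of some group. Genes were named through a RefSeq table (TAIR10.1) and represented by their brightest probe on average. limma 3.58.1 in R 4.3.3 fitted 4 group means (8 residual and 1.74 prior degrees of freedom) to 26794 genes or unnamed probes and tested 5 contrasts. Calls used a Benjamini-Hochberg threshold of 0.05 over all of them. The code was tested on simulated data. Slide, read from the file names, and replicate number were also fitted as blocks. Same-numbered samples did not deviate together (r from -0.183 to 0.215 over 18 pairs), so the numbers were not taken as pairs.

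The 8 genes and the related lists were chosen with earlier results of these data known. All 8 were named, with the largest called rise and fall of each list per comparison and the 3 most similar genes by Pearson r. ARR1, CIPK23, the marker genes and genes in counts of 5 or fewer were named beyond that rule, after their values were seen. The locus first listed for SOS6 is another gene in the reference and was left out. Alternatives were other scalings (quantile, array median, E1A spike-in probes), other filters, the series table, slide and replicate blocks, a trended robust prior, a 2-fold threshold, the mean of all probes, only the groups compared, each array left out, and, chosen after seeing the data, each probe on its own and list counts under other scalings. Normexp background correction needs columns that are not held, so it was not run.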

Additional observations from a re-analysis of the deposited data

Results flagged for a closer look

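The salt responses of 5 genes from the related lists differed between the genotypes by limma's interaction test. They were 5 of 98 such genes tested, or 5.10%, where 8.96% of all genes tested were called, and no such difference was called for the 8 sodium genes. CBL6, a calcium sensor related to SOS3, fell more in SvGRP, with a difference of -0.99 (log2, adjusted p = 0.0032). It lay at -5.29, -5.05 and -5.08 in wild type at 150 mM and at -6.00, -6.19 and -6.02 in SvGRP, while at 0 mM all 6 arrays lay between -4.43 and -4.25. After slide was fitted its difference was -0.76 (adjusted p = 0.068), and leaving out any 1 array kept the adjusted p at or below 0.014.

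CIPK25, a kinase related to SOS2, had a difference of 0.97 (adjusted p = 0.018), with wild type at -0.36, -0.44 and -0.67 and SvGRP at -0.11, 0.09 and 0.44 under salt. On the spike-in scale its difference was 0.77 and did not pass (adjusted p = 0.077). ANN4, an annexin that SOS2 phosphorylates, had a difference of -0.73 (adjusted p = 0.018): its salt change was 0.43 in wild type and -0.30 in SvGRP. AHA7, a plasma membrane H+-ATPase of root hairs, had a difference of -1.99 (adjusted p = 0.021), with salt changes of 0.83 and -1.15. VHA-E3, a subunit of the vacuolar H+-ATPase, had a difference of -0.62 (adjusted p = 0.026). Fitting slide gave an adjusted p of 0.31 for CIPK25, 0.21 for ANN4, 0.33 for AHA7 and 0.23 for VHA-E3. Leaving out 1 array raised the adjusted p to at most 0.05 for CIPK25, 0.049 for ANN4, 0.058 for AHA7 and 0.068 for VHA-E3.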

How the results depend on the processing

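Of 800 planned values for single genes, 738 kept their side of the threshold, 30 passed it newly, 29 lost it and 3 reversed direction. A reversal was counted only where the reported or the alternative fit was called, so the 738 can include changes of sign without a call. The 3 came with E1A spike-in scaling: SOS2 for salt in wild type (0.0010), and SOS1 (0.26, adjusted p = 0.04) and AVP1 (0.32, adjusted p = 0.021) for genotype at 0 mM, where that scale called 7 of the 8 genes and the median of all genes moved from 0.03 to 0.39. It raised the share of calls that are higher from 52.3% to 86.0% for salt in wild type, from 45.1% to 64.7% for salt in SvGRP, from 49.2% to 95.7% for genotype at 0 mM and from 35.4% to 65.6% at 150 mM, and lowered it from 28.1% to 6.4% for the interaction. Quantile and median scaling moved that share at 150 mM to 50.1% and 53.5%, and for the interaction to 44.6% and 46.2%. An AVP1 probe tested on its own was also opposite to the reported one at 0 mM (0.20, adjusted p = 0.035).

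The number of the 8 genes called for genotype at 150 mM, reported as 1, was 3 with quantile or median scaling, slide as a random block or the mean of all probes, 2 with E1A scaling or a trended robust prior, and 0 with slide as a fixed block, a 2-fold threshold or only the groups compared. At 0 mM, also reported as 1, it was 2 with slide as a random block or the mean of all probes, 3 with only the groups compared, and 0 with a fixed slide block or a 2-fold threshold. A 2-fold threshold left 2 for salt in wild type and 3 in SvGRP, and a random slide block gave 2 for the interaction. The random block estimated a negative correlation within slides (-0.165), so it did not treat arrays of a slide as alike. Leaving out 1 array gave 0 to 1 at 0 mM, 0 to 2 at 150 mM and 0 to 1 for the interaction. The replicate block, whose numbers do not pair the samples, left 6, 7, 1, 1 and 0 genes called in the 5 comparisons and changed no call of the 8. The cause of these changes was not tested. The files hold no background or flags, so signal over background is bounded here only by the 20th percentile of each array, at most 27.6.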

Other observations

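Other proton pumps and antiporters of ion balance were called under salt at shares to be read against 63.2% of all genes in wild type and 68.8% in SvGRP. Of 10 plasma membrane H+-ATPases, which drive SOS1, 3 rose and 2 fell in wild type and 4 rose and 3 fell in SvGRP. Once slide was fitted these counts were 2 and 0, and 1 and 2, and on the spike-in scale they were 8 and 0, and 6 and 2. AHA11 rose by 1.20 in wild type and 0.93 in SvGRP, and AHA9 by 1.32 and 0.55. The SvGRP rise of AHA9 did not pass after slide was added (limma, adjusted p = 0.089). Its probe was dim, with mean log2 levels of -7.57 in wild type and -6.50 in SvGRP at 0 mM. AHA2, an abundant isoform of roots, changed by -0.34 in wild type and -0.80 in SvGRP. On the spike-in scale its wild-type change was 0.09 (limma, adjusted p = 0.48). AHA7 changed by 0.83 in wild type and -1.15 in SvGRP, and its SvGRP fall was not called after slide was added (adjusted p = 0.18). The number that fell in wild type was between 1 and 3 when 1 array was left out.

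The 4 CAX cation exchangers of the vacuole, which move calcium, all rose in wild type and 3 of 4 rose in SvGRP, beside 33.1% and 31.0% of all genes, and with slide in the fit 2 and 3 did. SOS4 and SOS5 were found in the same mutant screens as SOS1 to SOS3 but lie outside the pathway. SOS4 fell by 0.21 in wild type and 0.30 in SvGRP, and both passed with slide fitted (limma, adjusted p = 0.032 and 0.0088). SOS5 fell by 0.31 in SvGRP, also with slide fitted (adjusted p = 0.032), but was not called in wild type (-0.07, adjusted p = 0.39). On the spike-in scale neither was called lower: SOS4 was at 0.22 in wild type (adjusted p = 0.07) and SOS5 at -0.08 in SvGRP (adjusted p = 0.57).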
